A study of Chlamydomonas reinhardtii with 21 samples.

Results

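The Calvin cycle genes described here are the 10 genes for enzymes of the cycle other than Rubisco, taken by their gene identifiers from a table of 17741 Chlamydomonas reinhardtii genes and not by their measured values. They encode Rubisco activase (RCA1), phosphoglycerate kinase (PGK1), glyceraldehyde-3-phosphate dehydrogenase (GAP3), triosephosphate isomerase (TPI1), fructose-bisphosphate aldolase (FBA3), fructose-1,6-bisphosphatase (FBP1), sedoheptulose-1,7-bisphosphatase (SBP1), transketolase (TRK1), ribulose-phosphate 3-epimerase (RPE1) and phosphoribulokinase (PRK1). RNA of 21 liquid cultures of this green alga was sequenced to ask which endogenous genes respond to the loss and return of SRTA, a Sir2-type histone deacetylase whose mutation lets the alga express transgenes. Batch 2 held 3 cultures each of the SRTA complemented strains UVM11-C9 and UVM11-C1 and of their srta mutant parent UVM11. Batch 1 held 4 cultures each of UVM4 and UVM11, both srta mutants, and of the strain both came from, Elow47, which has the SRTA WT allele. UVM4 (allele srta-2) and UVM11 (allele srta-1) are UV-induced mutants, each a single line with its own background mutations. UVM11-C9 and UVM11-C1 are each 1 transformant of UVM11, selected on hygromycin, with a FLAG-tagged SRTA cDNA under the native SRTA promoter. All strains derive from the cell wall-deficient arginine auxotroph cw15arg- and carry the ARG7 gene and the emetine resistance gene CRY1-1 of Elow47. No culture was treated, and all were harvested in mid-log growth from acetate-containing medium in continuous light.

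The Calvin cycle fixes CO2 in the chloroplast. Rubisco adds CO2 to ribulose bisphosphate, PGK and GAPDH reduce the product to triose phosphate, and the remaining enzymes rebuild the acceptor from triose phosphate through aldolase, transketolase, the sugar bisphosphatases, epimerase and, as the last step, phosphoribulokinase. Rubisco activase removes inhibitory sugar phosphates from the Rubisco active site. Several of the enzymes are controlled by light through the thioredoxin system at the level of the protein, which transcript levels do not show.

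Transcript level was measured as FPKM, sequenced fragments scaled to gene length and library depth, so that levels can be compared between genes. FPKM summed to between 542464 and 617687 per culture, and the relative depth of the libraries ranged from 0.827 to 1.26 around their geometric mean. The 10 genes together took up 0.938% to 1.44% of that sum. UVM11 replicate 5 of batch 2 had the lowest share of the 21 cultures and the lowest level of its group in 10 of 10 genes, as UVM11-C9 replicate 1 had in its own group. The genes summed to 5200 FPKM in UVM11 replicate 5, against 6812 and 6642 FPKM in replicates 6 and 7 of that group. Its relative depth was 1.12, inside the range of the other libraries, and the part of depth in these results was not tested. Calls and medians that rest on UVM11 of batch 2 are given with and without this culture below. The SRTA transcript itself was at 3.32 to 3.66 FPKM in UVM11-C9 and 4.84 to 5.63 FPKM in UVM11-C1, against 2.65 to 2.92 FPKM in UVM11 of batch 2. It was higher in both complemented strains by log2 fold changes of 0.30 ± 0.11 and 0.87 ± 0.11 (SE, adjusted p = 0.0304 and 1.82e-05, limma), or 0.33 and 0.89 without UVM11 replicate 5 (adjusted p = 0.0417 and 9.3e-05). The SRTA call in UVM11-C9 depended on single cultures. It was lost without UVM11-C9 replicate 1 or 2 (adjusted p = 0.0617 and 0.0971). It was also lost without UVM11 replicate 6 or 7 of batch 2 (adjusted p = 0.0974 and 0.0549). The UVM4 and UVM11 alleles are point mutations, so that the transcript does not check those labels.

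All 10 genes were among the 498 genes of highest mean level. FBA3 led with a mean of 2159 FPKM over the 21 cultures and ranked 41 of 17741. GAP3 followed with 1454 FPKM, TRK1 with 865 FPKM, PRK1 with 692 FPKM, SBP1 with 672 FPKM and PGK1 with 488 FPKM. RCA1, FBP1 and RPE1 lay close together at 257, 250.1 and 234 FPKM, and TPI1 was lowest with 143 FPKM and rank 498. The order held in 21 of 21 cultures for each neighbouring pair except 3. PRK1 was above SBP1 in 15 of 21 cultures, with 0 of 3 in UVM11-C9. RCA1 was above FBP1 in 11 of 21 cultures, including 3 of 3 of UVM11-C9 and 4 of 4 of UVM4 but 0 of 3 of UVM11-C1 and 0 of 4 of UVM11 in batch 1. FBP1 was above RPE1 in 17 of 21 cultures. Over all cultures the highest value of a gene exceeded its lowest by a ratio of 1.34 (FBP1) to 1.96 (FBA3). For 7 genes the lowest of the 21 values came from UVM11 replicate 5 of batch 2.

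The genes lie on 7 chromosomes of assembly v5.5 (RefSeq), and each range given here is the whole span of the gene with its introns. The carbon-reduction genes are PGK1 (Cre11.g467770) on chromosome 11 at 1638740 to 1643130 and GAP3 (Cre01.g010900) on chromosome 1 at 2039260 to 2042765. RCA1 (Cre04.g229300) is on chromosome 4 at 3728598 to 3732872. TPI1 (Cre01.g029300) is on chromosome 1 at 4325646 to 4327449, FBA3 (Cre05.g234550) on chromosome 5 at 2060640 to 2063875 and TRK1 (Cre02.g080200) on chromosome 2 at 984214 to 988819. SBP1 (Cre03.g185550) is on chromosome 3 at 5486878 to 5489490 and PRK1 (Cre12.g554800) on chromosome 12 at 7636065 to 7639700. RPE1 (Cre12.g511900) at 1825706 to 1828406 and FBP1 (Cre12.g510650) at 1935474 to 1938770 are neighbours at a distance on chromosome 12, with 107067 bases and 25 annotated genes between them.

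**Figure D1:**
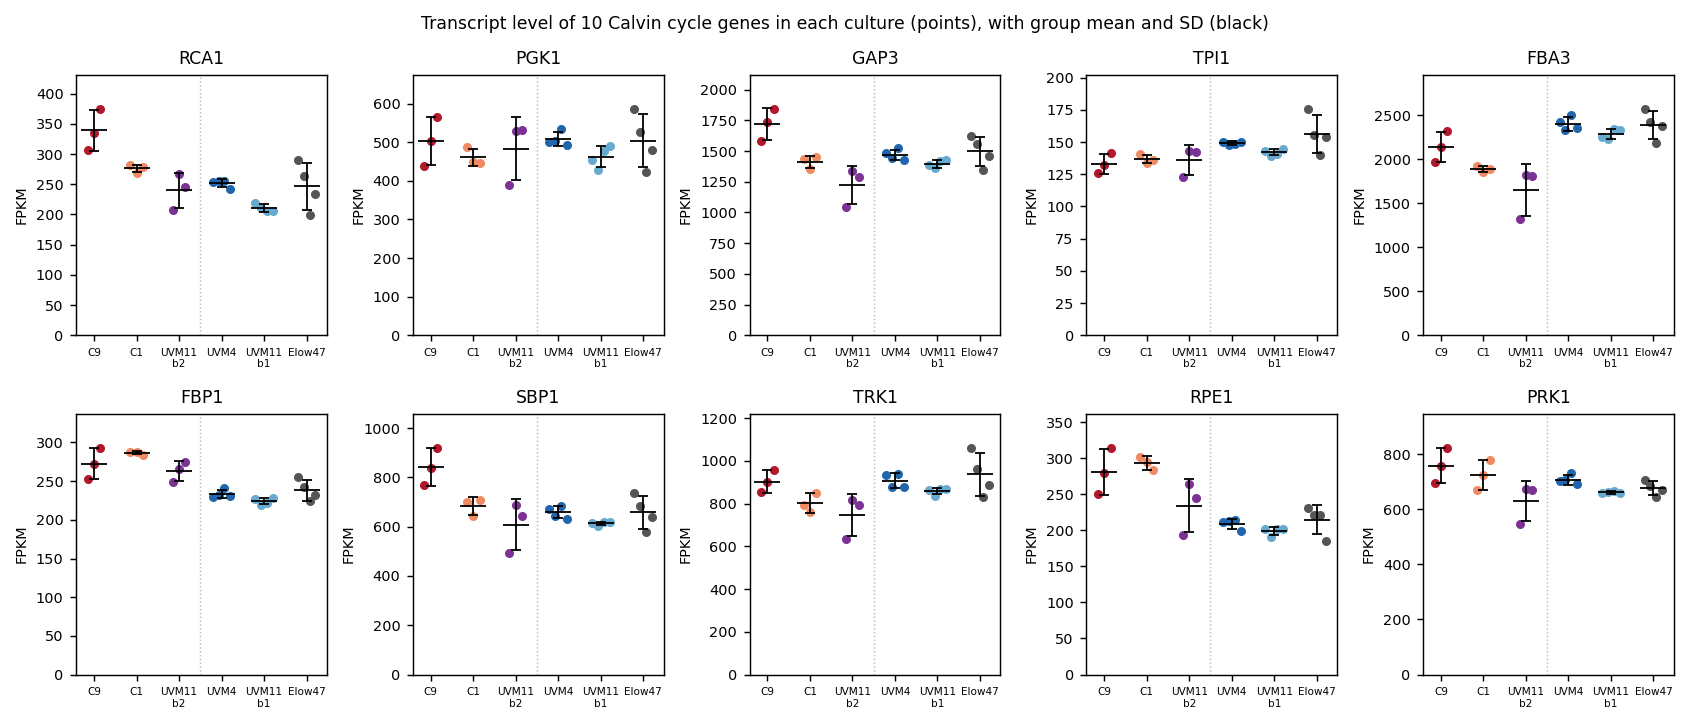
FPKM of each Calvin cycle gene (1 panel each, vertical axis from 0) in every culture of UVM11-C9, UVM11-C1 and UVM11 of batch 2 (left of the dotted line) and of UVM4, UVM11 and Elow47 of batch 1; points are cultures and black marks the mean and SD. UVM11-C9 is highest for RCA1, GAP3 and SBP1 (means of 339, 1723 and 842 FPKM), and FBA3 is lower in each group of batch 2 (1650 to 2139 FPKM) than in each group of batch 1 (2291 to 2398 FPKM).

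The level of the Calvin cycle transcripts was first compared between the mutants and Elow47, which asks whether loss of SRTA function is accompanied by a change. In UVM4 none of the 10 genes passed the test (0 higher and 0 lower at a Benjamini-Hochberg adjusted p below 0.05 in limma, and 0 at an unadjusted p below 0.05), against 8.39% of all 15425 genes tested (22% at an unadjusted p below 0.05) and 4.22% of the 498 genes at or above the level of TPI1. The 5 genes above 0 and the 5 below 0 had log2 fold changes between -0.06 (TPI1) and 0.06 (PRK1), with standard errors of 0.05 to 0.10. FBA3, the aldolase, was at 2417, 2326, 2496 and 2351 FPKM in UVM4, against 2575, 2424, 2179 and 2375 FPKM in Elow47. The spread among the Elow47 cultures was wider than that of UVM4 for this gene. The groups overlapped for all 10 genes. Over all tested genes, every UVM4 culture was above every Elow47 culture for 7.44% and below for 6.67%. For the reductive enzyme GAP3 the 95% interval of the fold ran from 0.892 to 1.09, and for PRK1 from 0.955 to 1.14. The widest interval was that of PGK1, 0.88 to 1.17.

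UVM11 of batch 1 was set against the same Elow47 cultures as UVM4. The 10 genes had log2 fold changes below 0 relative to Elow47, from -0.21 (RCA1) to -0.03 (PRK1), with a median of -0.10, against -0.06 for the 498 genes of like level and -0.01 for all tested genes. None passed the test (0 of 10), against 7.86% of all tested genes changed and 6.02% of the genes of like level. At an unadjusted p below 0.05 there were 2, RCA1 and TPI1, against 21.7% of all tested genes. RCA1, the activase, was at 219, 211, 207 and 206 FPKM in UVM11, against 289.7, 263, 199.7 and 234 FPKM in Elow47 (log2 fold change -0.21 ± 0.09, SE, adjusted p = 0.152). Replicate 3 of Elow47 lay below all 4 UVM11 cultures. TPI1, which interconverts the triose phosphates, was at 143, 139, 141 and 145 FPKM in UVM11, against 176, 156, 140.0 and 154 FPKM in Elow47 (-0.14 ± 0.06, adjusted p = 0.169). Again replicate 3 was the lowest Elow47 culture. Without it 2 of 10 genes, RCA1 and TPI1, were lower in UVM11, with log2 fold changes of -0.31 and -0.19 (adjusted p = 0.0138 and 0.0385). In the same fit 3.91% of all tested genes and 9.04% of the genes of like level were lower, against 3.48% of all tested genes with the culture. Scaling the cultures to equal FPKM sums moved the median of all tested genes to 0.04 and put PRK1 at 0.02, with the other 9 genes below 0.

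UVM4 and UVM11 carry different srta alleles and were compared directly. The 10 genes had log2 fold changes above 0 in UVM4 relative to UVM11, from 0.06 (FBP1) to 0.26 (RCA1), with a median of 0.08, against 0.04 for the genes of like level. None passed the test (0 of 10, and 1 at an unadjusted p below 0.05), while 5.16% of all tested genes were higher, 4.39% lower and 23.2% past the unadjusted threshold. RCA1 was at 253, 256, 256 and 242 FPKM in UVM4, against 219, 211, 207 and 206 FPKM in UVM11 (0.26 ± 0.09, SE, adjusted p = 0.073). PGK1, which uses ATP to phosphorylate phosphoglycerate, was at 499.8, 503, 535 and 493 FPKM in UVM4, against 453, 429, 478 and 489 FPKM in UVM11 (0.14 ± 0.10, adjusted p = 0.432). All cultures of UVM4 were above all those of UVM11 for 8 of 10 genes, FBA3 and RPE1 being the other two, against 12.6% of all tested genes. In a model of these 2 groups alone, RCA1, PRK1, PGK1 and SBP1 were higher in UVM4 (adjusted p = 1.4e-04, 0.0295, 0.0451 and 0.0399), as were 9.26% of all tested genes and 15.5% of the genes of like level in that model. RCA1 also passed when UVM11 replicate 5 of batch 2, Elow47 replicate 1 or Elow47 replicate 3 was left out of the estimate of the spread (adjusted p = 0.049, 0.0404 and 0.0224).

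**Figure D2:**
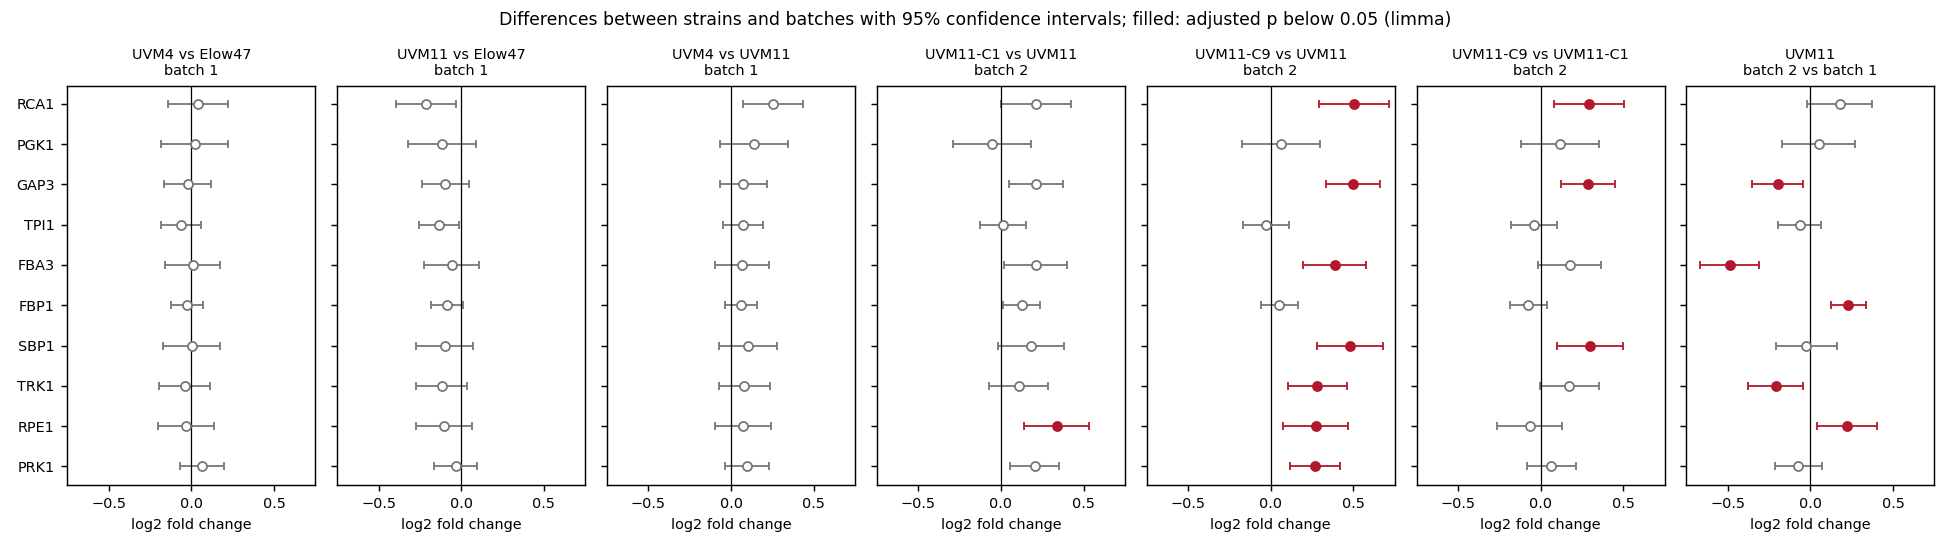
Log2 fold change (horizontal axis) of each Calvin cycle gene with its 95% confidence interval in the 7 comparisons, the first-named strain or batch over the second; filled red points passed an adjusted p of 0.05. No point is filled in the 3 comparisons of batch 1, 7 are in UVM11-C9 against UVM11, and both directions occur between the batches.

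The comparison with the most genes called within a batch was that of UVM11-C9, where 7 of 10 Calvin cycle genes were higher than in UVM11 of the same batch and 0 were lower. Over all tested genes 24.3% were higher and 23.2% lower in this comparison, and among the 498 genes of like level 23.3% and 24.5%. The median log2 fold change of the 10 genes was 0.28, against -0.02 for the genes of like level and -0.01 for all tested genes. Without UVM11 replicate 5 the median was 0.17, against -0.04 for the genes of like level, and 5 of 10 genes were higher, against 21.5% of all tested genes and 15.7% of the genes of like level. None was a DEG, which also asks for an adjusted p below 0.01 and an absolute log2 fold change above 1, against 3.59% of all tested genes. Because FPKM are averages over a culture, fewer cells with a transcript and less of it per cell cannot be told apart.

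The activase, the dehydrogenase and a bisphosphatase changed most. RCA1 was at 307, 335 and 375 FPKM in UVM11-C9, against 208, 266 and 245 FPKM in UVM11, a log2 fold change of 0.50 ± 0.10 (SE, adjusted p = 4.0e-04) or 1.42-fold. GAP3, the NADPH-consuming dehydrogenase, was at 1585, 1737 and 1846 FPKM in UVM11-C9, against 1048, 1341 and 1286 FPKM in UVM11 (0.50 ± 0.08, adjusted p = 3.7e-05). SBP1, a bisphosphatase found in the cycle and not in glycolysis, was at 769, 836 and 919.5 FPKM in UVM11-C9, against 494, 689 and 642 FPKM in UVM11 (0.48 ± 0.10, adjusted p = 4.1e-04). For these 3 genes each UVM11-C9 culture exceeded each UVM11 culture, and without UVM11 replicate 5 their log2 fold changes were 0.40, 0.39 and 0.34 (adjusted p = 0.0041, 2.3e-04 and 0.0028).

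FBA3 was at 1968, 2135 and 2315 FPKM in UVM11-C9, against 1315, 1824 and 1812 FPKM in UVM11 (0.39 ± 0.09, adjusted p = 0.0017; 0.23 without UVM11 replicate 5, adjusted p = 0.0094). PRK1, which makes the CO2 acceptor, was at 697, 757 and 823 FPKM in UVM11-C9, against 547, 675 and 672 FPKM in UVM11 (0.27 ± 0.07, adjusted p = 0.0045, and 0.17 without UVM11 replicate 5, adjusted p = 0.0408). Both genes had separate groups, as did TRK1. TRK1, which moves ketol units between sugar phosphates, was at 852, 898 and 958 FPKM in UVM11-C9, against 634, 816 and 791 FPKM in UVM11 (0.28 ± 0.09, adjusted p = 0.0105). RPE1, the epimerase, was at 251, 279 and 314 FPKM in UVM11-C9, against 193, 264 and 245 FPKM in UVM11 (0.27 ± 0.09, adjusted p = 0.0218), with overlap. TRK1 and RPE1 depended on single cultures. Without UVM11 replicate 5 their log2 fold changes were 0.17 and 0.14 (adjusted p = 0.0922 and 0.187), without UVM11-C9 replicate 3 they were 0.24 and 0.19 (adjusted p = 0.0519 and 0.134), and in either case 5 of 10 genes were higher. Without UVM11-C9 replicate 3, 21.3% of all tested genes and 15.9% of the genes of like level were higher. PRK1 and RPE1 also missed the threshold in a model of the 2 strains alone (adjusted p = 0.0516 and 0.102). In all, 6 of 10 genes had every UVM11-C9 culture above every UVM11 culture, against 28.2% of all tested genes.

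The other 3 genes did not pass the test. PGK1 was at 439, 504 and 566 FPKM in UVM11-C9, against 389.5, 528 and 532 FPKM in UVM11, and its 95% interval of the log2 fold change ran from -0.17 to 0.30. TPI1 was at 126, 132 and 141 FPKM in UVM11-C9, against 122, 143 and 143 FPKM in UVM11 (interval -0.17 to 0.11). The bisphosphatase FBP1, which hydrolyses fructose bisphosphate, was at 253, 272 and 293 FPKM in UVM11-C9, against 249, 266 and 275 FPKM in UVM11 (interval -0.06 to 0.16). For these genes the groups overlapped, and whether their changes differed from those of RCA1, GAP3 and SBP1 was not tested.

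In UVM11-C1, the other complemented strain, 1 of 10 genes was higher than in UVM11 and 0 were lower, against 8.32% higher and 10.1% lower of all tested genes and 19.1% higher of the genes of like level. The gene was RPE1, at 302, 295 and 284 FPKM in UVM11-C1, against 193, 264 and 245 FPKM in UVM11 (log2 fold change 0.34 ± 0.09, SE, adjusted p = 0.0166). The call was lost without UVM11 replicate 5 (0.21, adjusted p = 0.102), without UVM11-C1 culture b (0.33, adjusted p = 0.0542) and in a model of the 2 strains alone (adjusted p = 0.113). GAP3 was at 1433, 1352 and 1448 FPKM in UVM11-C1, against 1048, 1341 and 1286 FPKM in UVM11 (0.21 ± 0.08, adjusted p = 0.0666). PRK1 was at 671, 724 and 781 FPKM in UVM11-C1, against 547, 675 and 672 FPKM in UVM11 (0.20 ± 0.07, adjusted p = 0.0546). Both missed the threshold. Without UVM11 replicate 5 both were at 0.10 (adjusted p = 0.347 for GAP3 and 0.296 for PRK1), and without UVM11 replicate 6 both were higher (adjusted p = 0.0344 for GAP3 and 0.0403 for PRK1). Without Elow47 replicate 3, which enters only the estimate of the spread, they were also higher, and 3 of 10 genes then passed. In that fit 9.57% of all tested genes and 22.5% of the genes of like level were higher. PRK1 joined RPE1, for 2 of 10, without UVM11 replicate 7, UVM11-C1 culture a, UVM11-C9 replicate 1 or UVM11-C9 replicate 3. Those fits called 7.02% to 8.64% of all tested genes and 19.3% to 20.7% of the genes of like level higher. The 10 genes had a median log2 fold change of 0.19, against 0.08 for the genes of like level, and 9 of 10 were above 0. Without UVM11 replicate 5 the median was 0.07, against 0.03 for the genes of like level, 7 of 10 genes were above 0 and none was called. In that fit 7.15% of all tested genes and 11.8% of the genes of like level were higher. PGK1, TPI1 and TRK1 were then at -0.20, -0.06 and -0.01. With all cultures, 6 of 10 genes had an unadjusted p below 0.05 in limma, against 32.5% of all tested genes. Each UVM11-C1 culture exceeded each UVM11 culture for RCA1, GAP3, FBA3, FBP1 and RPE1, against 13.6% of all tested genes. RCA1 and FBA3 were both at 0.21 (SE 0.10 and 0.09, adjusted p = 0.151 and 0.115). Without UVM11 replicate 5 they were at 0.11 and 0.05 (adjusted p = 0.50 and 0.628).

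The complemented strains share the UVM11 cultures as their reference and were compared with each other directly. In UVM11-C9, 3 of 10 genes were higher than in UVM11-C1 and 0 were lower, against 25.4% higher and 22.8% lower of all tested genes, and 19.1% higher and 35.1% lower of the genes of like level. RCA1 was at 307, 335 and 375 FPKM in UVM11-C9, against 281, 269 and 278 FPKM in UVM11-C1 (log2 fold change 0.29 ± 0.10, SE, adjusted p = 0.0219). For GAP3 the cultures were at 1585, 1737 and 1846 FPKM in UVM11-C9, against 1433, 1352 and 1448 FPKM in UVM11-C1 (0.29 ± 0.08, adjusted p = 0.0055). SBP1 was at 769, 836 and 919.5 FPKM in UVM11-C9, against 698, 644 and 709.7 FPKM in UVM11-C1 (0.30 ± 0.10, adjusted p = 0.0151). For these genes and for FBA3 and TRK1, 5 of 10 in all, each UVM11-C9 culture exceeded each UVM11-C1 culture, against 28.1% of all tested genes. RCA1 and SBP1 missed the threshold without UVM11-C9 replicate 3 (adjusted p = 0.119 and 0.0838) and without UVM11-C1 culture b (adjusted p = 0.0647 and 0.0668), which left GAP3 as 1 of 10. In those fits 22% and 21.9% of all tested genes were higher, and 14.1% and 14.3% of the genes of like level. Without UVM11 replicate 5, which enters only the estimate of the spread, FBA3 and TRK1 also passed and 5 of 10 genes were higher. In that fit 25.9% of all tested genes and 21.9% of the genes of like level were higher. The FPKM of UVM11-C1 summed to more (593673 to 617687) than those of UVM11-C9 (548358 to 593150), and when all cultures were scaled to equal sums, 6 of 10 genes were higher in UVM11-C9, with PRK1, FBA3 and TRK1 at 0.15, 0.26 and 0.26 (adjusted p = 0.0325, 0.0031 and 0.0021). That scaling moved the median of all tested genes to 0.09, against 0.01 as deposited, with 32.8% of them higher and 15.5% lower, and with 30.5% and 27.3% of the genes of like level. FBP1, TPI1 and RPE1, at -0.07, -0.04 and -0.07 as deposited, were at 0.01, 0.04 and 0.02 after this shift and lay below the median of all tested genes on both scales.

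UVM11 was grown in both batches, and the comparison of its cultures measures the batch, in which growth, extraction and sequencing cannot be told apart. In batch 2, 2 of 10 genes were higher and 3 were lower than in batch 1, against 27.6% higher and 28.5% lower of all tested genes. Of the genes of like level 25.7% were higher and 33.5% lower. FBA3 was at 1315, 1824 and 1812 FPKM in UVM11 of batch 2, against 2252, 2234, 2347 and 2329 FPKM in UVM11 of batch 1 (log2 fold change -0.49 ± 0.09, SE, adjusted p = 7.1e-05). FBP1, the enzyme that follows aldolase on fructose bisphosphate, moved the other way. It was at 249, 266 and 275 FPKM in UVM11 of batch 2, against 227, 219, 222 and 229 FPKM in UVM11 of batch 1 (0.23 ± 0.05, adjusted p = 6.7e-04). The batches did not overlap for either gene, nor for GAP3 and TRK1. Over all tested genes, every UVM11 culture of batch 2 was above every one of batch 1 for 28.5% and below for 29.5%. FBA3 and FBP1 passed without any 1 culture, FBA3 with log2 fold changes of -0.57 to -0.33 and FBP1 with 0.20 to 0.27. The remaining 3 calls were less stable. GAP3 was at 1048, 1341 and 1286 FPKM in UVM11 of batch 2, against 1386, 1358, 1421 and 1426 FPKM in UVM11 of batch 1 (-0.20 ± 0.07, adjusted p = 0.0276), and TRK1 gave -0.21 ± 0.08 (adjusted p = 0.0306). RPE1 was at 193, 264 and 245 FPKM in UVM11 of batch 2, against 201, 191, 201 and 202 FPKM in UVM11 of batch 1 (0.22 ± 0.09, adjusted p = 0.0374), with overlap. Without UVM11 replicate 5 of batch 2, GAP3 and TRK1 missed the threshold at -0.09 and -0.10 (adjusted p = 0.275 and 0.292), RPE1 was at 0.35 (adjusted p = 0.001) and RCA1 passed at 0.28 (adjusted p = 0.0248), so that 3 genes were higher and 1 lower. In that fit 24.6% of all tested genes were higher and 25.2% lower, and of the genes of like level 29.1% and 25.5%. RPE1 missed the threshold without UVM11 replicate 6 or 7 of batch 2 (adjusted p = 0.253 and 0.138) and without any 1 UVM11 culture of batch 1 (adjusted p = 0.053 to 0.0829). Without UVM11 replicate 3 or replicate 4 of batch 1, GAP3 and TRK1 missed the threshold as well and 1 gene, FBA3, was lower, and without replicate 1 of batch 1 TRK1 missed it (adjusted p = 0.0542). Without replicate 3 or 4 of batch 1, 26.2% and 26.9% of all tested genes were lower, and 31.7% and 31.3% of the genes of like level.

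Of the 21 tested genes that lie between RPE1 and FBP1 on chromosome 12, 5 were higher and 5 lower in UVM11 of batch 2 than of batch 1, with a median log2 fold change of 0.03. Over all tested genes 27.6% were higher and 28.5% lower. RPE1 and FBP1 were both higher, and the genes between them changed in both directions. This stretch was looked at after the values of both genes were seen.

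The part of the variation that lay between batches differed among the 10 genes. In all 21 cultures, on the log2 scale, the batches took up 75.1% of the sum of squares of FBP1, 60.2% of that of RPE1, 55.6% of that of FBA3 and 40.8% of that of TPI1. For GAP3, PGK1 and PRK1 it was 0.313%, 1.07% and 3.18%. Strains within a batch took up 71.9% for GAP3, 53.1% for SBP1, 50.6% for PRK1 and 45.9% for RCA1. PGK1 differed from the others in that 83.7% lay between replicate cultures of a group. The batches hold different strains apart from UVM11, so that the share between batches also holds strain differences.

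The ratios of FBA3 to FBP1 and to GAP3 separated all cultures of batch 2 from all those of batch 1. Only UVM11 was grown in both batches, so that batch and strain cannot be told apart for the other strains. FBA3 exceeded FBP1 by a factor of 7.84 ± 0.07 in UVM11-C9, 6.58 ± 0.12 in UVM11-C1 and 6.25 ± 0.84 in UVM11 of batch 2 (SD, n = 3 each). The factor was 10.3 ± 0.23 in UVM4, 10.2 ± 0.27 in UVM11 of batch 1 and 10.01 ± 0.21 in Elow47 (SD, n = 4 each). The ratio of FBA3 to GAP3 was 1.23 to 1.41 over the 9 cultures of batch 2 and 1.56 to 1.65 over the 12 cultures of batch 1, so that no culture of either batch reached the range of the other. As a share of the summed FPKM of the 10 genes, FBA3 fell between 25.3% and 27.4% in the cultures of batch 2 and between 31.3% and 32.7% in those of batch 1. The ratio of FBP1 to SBP1, the bisphosphatases of the cycle, was 0.324 ± 0.005 in UVM11-C9 and 0.42 ± 0.024 in UVM11-C1 (SD, n = 3 each) and did not overlap between them. The ratio of SBP1 to PRK1 was 1.10 to 1.12 in UVM11-C9, above its 0.89 to 1.04 in each of the other 18 cultures. These ratios were chosen after the values were seen and are given with no test.

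**Figure D3:**
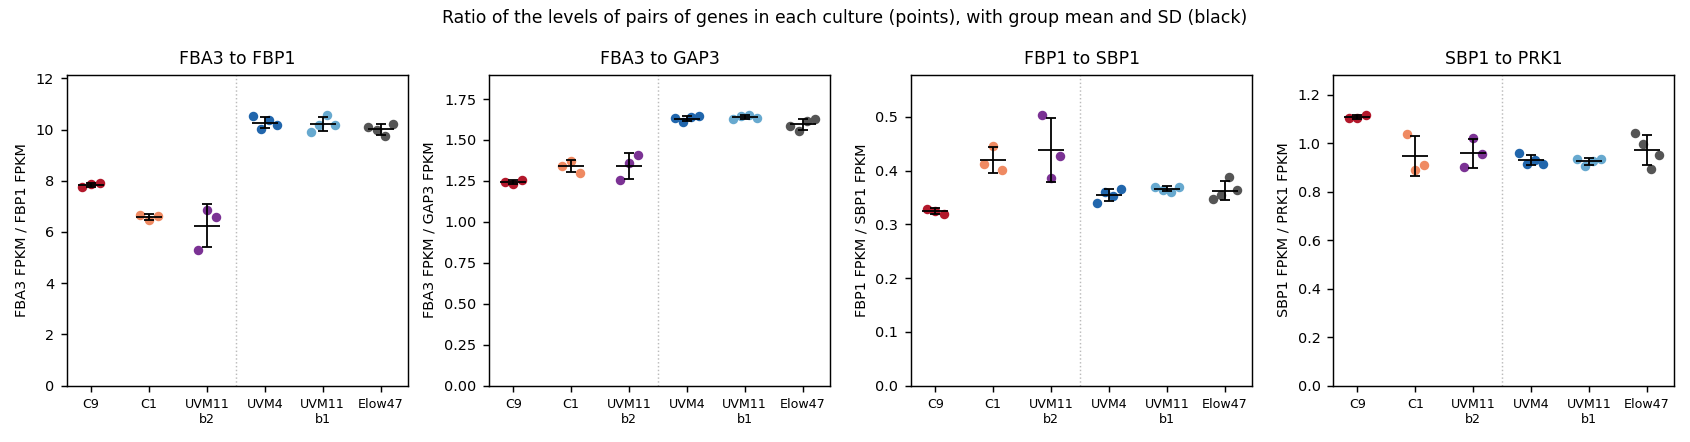
Ratio of the FPKM of 4 pairs of Calvin cycle genes (vertical axis from 0) in each culture (points) with the group mean and SD (black), batch 2 left of the dotted line and batch 1 right of it. FBA3 to FBP1 and FBA3 to GAP3 are lower in every culture of batch 2 than of batch 1, and SBP1 to PRK1 is highest in UVM11-C9.

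Within a group the 10 genes deviated together. After removal of the group means, the level of each gene followed the mean of the other 9 over the 21 cultures with a Pearson r of 0.77 (RPE1) to 0.98 (GAP3), as a description of cultures that share their library and scaling. UVM11-C9 replicate 3 had the highest level of its group for 10 of 10 genes and replicate 1 the lowest for 10 of 10, by mean log2 deviations of 0.12 and -0.12. Elow47 replicate 1 was the highest of its 4 cultures for 10 of 10 genes (0.15) and replicate 3 the lowest for 9 of 10 (-0.14), RPE1 being the exception. In UVM11 of batch 2, replicate 5 deviated by -0.22 on average, most for FBA3 (-0.31) and least for FBP1 (-0.08). The cultures of UVM4 and UVM11 in batch 1 stayed closer, with mean deviations between -0.04 and 0.04. The sum of FPKM of all genes moved with these deviations in part: in UVM11-C9 it was 593150 in replicate 3 and 548358 in replicate 1, in Elow47 604568 in replicate 1 and 557794 in replicate 3. The share of the 10 genes in that sum differed in the same direction, 1.44% and 1.32% in UVM11-C9 and 1.36% and 1.22% in Elow47. The residual SD of the 10 genes had a median of 0.12 (log2), against 0.09 for the 498 genes of like level and 0.12 for all tested genes. How often other genes ordered the cultures of a group in the same way was not counted.

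**Figure D4:**
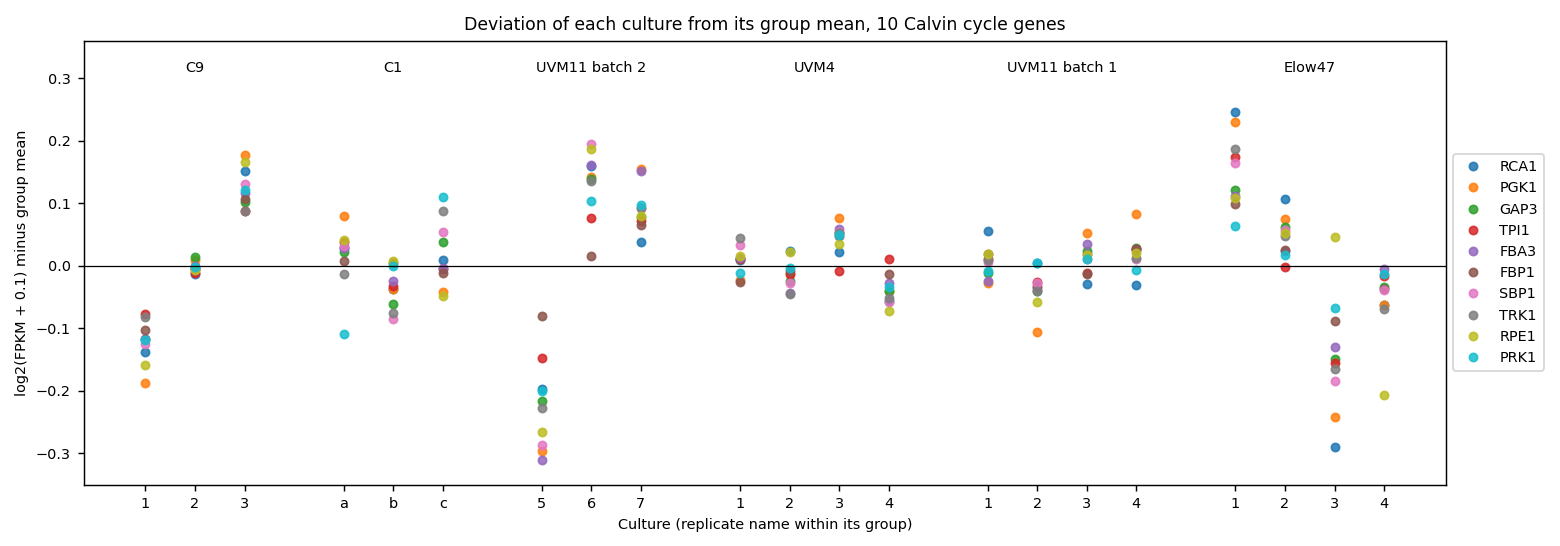
Deviation of log2(FPKM + 0.1) from the group mean (vertical axis) for the 10 Calvin cycle genes (colours) in each of the 21 cultures (horizontal axis, grouped by strain and batch). In UVM11-C9, UVM11 of batch 2 and Elow47 the 10 genes of a culture lie mostly on the same side of 0, with UVM11 replicate 5 between -0.31 and -0.08.

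Of the genes outside the set, the 5 whose log2 level most closely followed the mean of the 10 genes over the 21 cultures were Cre12.g558900 (Pearson r = 0.92), Cre12.g493950 (0.90), Cre11.g467689 (0.89), Cre03.g158900 (0.88) and Cre11.g476750 (0.87). After removal of the group means their r were 0.89, 0.92, 0.84, 0.87 and 0.97 in the same order. They were chosen as the highest of the genes with a mean above 1 FPKM. Cre11.g476750 followed the culture-to-culture deviations most closely, and Cre11.g467689 least. The mean levels of the 5 genes were 125 to 469.9 FPKM, within the range of the Calvin cycle genes or just below it.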

How the data were processed

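RNA of 21 cultures in 6 groups of strain and batch was sequenced; groups come from the sample labels. The labels give poly(A) RNA as the molecule but name a library kit for total RNA, and the methods name a poly(A) kit, which was not settled here. The authors aligned the reads with STAR (2.4.0j) to version 5 of the genome and deposited 1 FPKM value per gene and culture, computed with Cuffdiff (2.2.1). Read counts were not used here. Read depth is unknown in reads; relative depth was estimated from the steps of single fragments in 491 low genes, where 98.2% of 3406 values lay within 0.1 of a whole step, so precision is given as the spread between cultures.

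Values were taken as log2(FPKM + 0.1), and fold changes are on that scale. The 15425 genes with a mean above 0.1 FPKM were tested (2316 were not; all 10 Calvin cycle genes passed) with limma (3.58.1, trend, two-sided) in R (4.3.3), in 1 model of 6 groups with 15 residual degrees of freedom and Benjamini-Hochberg adjustment over all tested genes. A gene changed at an adjusted p below 0.05; a DEG also had an adjusted p below 0.01 and an absolute log2 fold change above 1. Scripts were tested on simulated data. Cultures of a group were grown separately, per the series design.

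The 10 genes, the lists and the tests were chosen with earlier results of these data known. The genes named are the 10 members, SRTA and the 5 outside genes of highest correlation. A list of 41 further pathway genes, the Rubisco small subunits included, was not used here because the reference table gives no symbols; in its place stand the 498 genes at or above the mean level of TPI1. The UVM11-C1 columns carry no usable culture number and are called a, b and c. Positions and spans come from RefSeq (v5.5).

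Alternatives were pseudocounts of 1 and 0.01, a mean above 1 FPKM or no filter, quantile and median ratio scaling, only the 2 groups compared, an adjusted p below 0.01, limma's treat at 0.26, a replicate block, each culture left out and, added after the data were seen, equal FPKM sums. In batch 1 the numbers of replicates did not pair the cultures: same-numbered cultures had correlations of deviations of -0.22 to 0.26, above 0.1 in 2 of 12 pairs.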

Additional observations from a re-analysis of the deposited data

Results flagged for a closer look

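In UVM11 of batch 1, replicate 2 lay below the other 3 cultures for SBP1 (601 FPKM, against 615 to 617 FPKM) and for RPE1 (191 FPKM, against 201 to 202 FPKM). Both genes had their smallest coefficient of variation of the 6 groups here, 1.25% and 2.64%. The gap of replicate 2 to the nearest culture was 0.887 and 0.947 of the range of the group, above the 95% critical value of Dixon's test for 4 samples. Chance flags about 5% of such groups. For the 10 genes and their sum 33 groups of 4 cultures were looked at, of which 2 were flagged. Without this culture the direction of both genes was the same in each comparison that uses it, and RPE1 was no longer called between the batches (adjusted p = 0.0829).

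The change relative to the shared UVM11 cultures differed between the strains UVM11-C9 and UVM11-C1 for RCA1, GAP3 and SBP1, by log2 fold changes of 0.29, 0.29 and 0.30 (adjusted p = 0.0219, 0.0055 and 0.0151, limma). In the same comparison 25.4% of all tested genes and 19.1% of the genes of like level were higher. RCA1 and SBP1 missed the threshold without UVM11-C9 replicate 3 and without UVM11-C1 culture b. All 3 UVM11-C9 cultures were above all 3 UVM11-C1 cultures for each gene, as for 28.1% of all tested genes. None of the 3 genes was called in UVM11-C1 against UVM11, where their log2 fold changes were 0.21, 0.21 and 0.18. Each strain is 1 transformant, so that complementation and the line cannot be told apart. The SRTA transcript differed the other way, with a log2 fold change of -0.56 ± 0.11 in UVM11-C9 relative to UVM11-C1 (adjusted p = 3.6e-04).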

How the results depend on the processing

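No Calvin cycle gene was a DEG under any alternative. In the main model 0.856% (UVM4 against UVM11) to 5.23% (between the batches of UVM11) of all tested genes were DEGs in the 7 comparisons. Counts of genes called (of 10) moved as follows. For UVM4 against UVM11, 1 was higher with quantile scaling and 4 in a model of the 2 groups (0 to 1 without 1 culture). With these 2 settings 5.15% and 9.26% of all tested genes were higher, and 4.62% and 15.5% of the genes of like level. For UVM11 against Elow47, 0 to 2 were lower without 1 culture. For UVM11-C1 against UVM11, 2 were higher with quantile or median ratio scaling, and 0 in a model of the 2 groups, at an adjusted p below 0.01 or with treat (0 to 3 without 1 culture). In that order, 8.71%, 8.6%, 2.05%, 3.57% and 0.551% of all tested genes were higher. For the genes of like level the shares were 10.6%, 21.3%, 2.61%, 9.84% and 0.402%. For UVM11-C9 against UVM11, 5 were higher at an adjusted p below 0.01 or in a model of the 2 groups, and treat called 1 (5 to 7 without 1 culture). In that order, 18%, 22.6% and 6.47% of all tested genes were higher, and 15.7%, 17.5% and 5.22% of the genes of like level. For UVM11-C9 against UVM11-C1, 6 were higher with quantile scaling or equal sums, 1 at an adjusted p below 0.01 and 0 with treat (1 to 5 without 1 culture). In that order, 25.7%, 32.8%, 18.8% and 7.05% of all tested genes were higher. For the genes of like level the shares were 30.3%, 30.5%, 13.7% and 2.61%. Between the batches of UVM11, 1 was higher with no filter, in a model of the 2 groups or at an adjusted p below 0.01, and 0 with treat, and 3 with quantile scaling. In that order, 24.1%, 28.4%, 21.6%, 11.1% and 23.9% of all tested genes were higher. For the genes of like level the shares were 24.7%, 25.7%, 20.7%, 5.62% and 27.9%. Between these batches 4 were lower with equal sums, 2 in a model of the 2 groups and 1 at an adjusted p below 0.01 or with treat (1 to 3 higher and 1 to 3 lower without 1 culture). In that order, 31.8%, 28.8%, 22% and 9.19% of all tested genes were lower. For the genes of like level the shares were 41.2%, 33.1%, 26.5% and 8.84%. Why these counts moved was not tested.

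No called gene changed direction. Uncalled genes that did so were, with quantile scaling, FBP1 and RPE1 in UVM4 against Elow47 (0.0065 and 0.011), PRK1 in UVM11 against Elow47 (0.057), TPI1 in UVM11-C1 and PGK1 in UVM11-C9 against UVM11 (-0.0072 and -0.042), and PRK1 and SBP1 between batches (0.012 and 0.069). With equal sums they were PRK1 in UVM11 against Elow47 (0.018), TPI1 in UVM11-C1 against UVM11 (-0.058), and TPI1, FBP1 and RPE1 in UVM11-C9 against UVM11-C1 (0.045, 0.010 and 0.020), in comparisons where equal sums moved the median of all tested genes to 0.040, -0.067 and 0.090. Leaving out 1 culture turned further uncalled genes. The ranges were, for UVM4 against Elow47, FBA3 -0.036 to 0.045, FBP1 -0.058 to 0.0044, GAP3 -0.072 to 0.017, PGK1 -0.061 to 0.10, RCA1 -0.055 to 0.12, RPE1 -0.10 to 0.0034, SBP1 -0.059 to 0.058 and TRK1 -0.094 to 0.023. For UVM11-C1 against UVM11 they were PGK1 -0.20 to 0.022, TPI1 -0.062 to 0.050 and TRK1 -0.0055 to 0.18, and for UVM11-C9 against UVM11 FBP1 -0.0028 to 0.10, PGK1 -0.083 to 0.16 and TPI1 -0.10 to 0.0097. For UVM11-C9 against UVM11-C1, RPE1 ranged over -0.15 to 0.014, and between batches PGK1 over -0.025 to 0.20, PRK1 -0.13 to 0.026, SBP1 -0.12 to 0.12 and TPI1 -0.10 to 0.0090.

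With the replicate number as a block in batch 1, 0 of 10 genes were called in each of its 3 comparisons. In that model 4.34% of all tested genes were higher and 3.41% lower in UVM4 against Elow47. The shares were 4.2% and 3.35% in UVM11 against Elow47, and 4.71% and 4.1% in UVM4 against UVM11. No paired analysis was possible in batch 2 or between the batches because the UVM11-C1 columns carry no number that can be matched to a culture and the UVM11 cultures of batch 2 are numbered 5 to 7. Scaling moved the median of all tested genes by less than 0.1 (log2) in each comparison. With 3 or 4 cultures a group, the 95% intervals of the 10 genes were 0.19 to 0.47 wide (log2), which limits what the comparisons with no call can show.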
